A study of Rattus norvegicus with 15 samples.

Results

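The genes of the circadian clock were measured in intestinal tissue of 15 male rats, with 1 Agilent 1-colour array for each rat. The genes taken as members were Arntl, Clock, Per1, Per2, Per3, Cry1, Cry2, Nr1d1, Nr1d2 and Dbp, and every non-control probe carrying one of these names in the array files was used. This gave 12 probes among the 41012 probes of the array, 1 probe for each gene and 3 for Per3. All 10 genes had at least 1 tested probe, and 11 of the 12 probes were tested, that is, in at least 1 group all 5 arrays had the probe well above background.

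There were 5 rats in each of 3 groups. Wistar rats were nondiabetic, without an operation, and matched in age to the diabetic rats. GK-Sham-PF rats were of the Goto-Kakizaki (GK) strain, a nonobese line with spontaneous diabetes, and were sham-operated at 16 wk of age by cutting the intestine 16 cm from the ligament of Treitz and rejoining it; they were also pair-fed (PF), that is, given a limited ration set by the intake of operated rats. GK-S-30 rats were of the same strain and age and had Roux-en-Y gastric bypass (RYGB) with a Roux limb (RL) of 30 cm. Tissue was taken at 14 wk postoperation. In GK-S-30 the 5-cm piece came from the RL, 5 cm from its join to the stomach, and in the other groups it came from 21 to 26 cm past the ligament of Treitz. All rats lived under 12 h of light and 12 h of dark, were fasted overnight and were killed from 9 to 11 in the morning. Neither the hour of lights on nor the hour at which each rat was killed is given in the sources used here, so a difference in hour between groups or rats within this window cannot be told apart from the other differences. Pair-feeding applied to GK-Sham-PF, and so strain, sham operation and ration cannot be told apart in GK-Sham-PF against Wistar.

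The clock is a feedback loop of transcription that runs in nearly every cell. The proteins of Arntl (also called Bmal1) and Clock bind DNA as a pair at E-box sequences and switch on the Per, Cry, Nr1d and Dbp genes. PER and CRY proteins then return to the nucleus and block the pair, while NR1D1 and NR1D2 (REV-ERB alpha and beta) repress Arntl through ROR elements, which the ROR receptors use to activate it. DBP acts on further genes through D-box sequences. Arntl therefore peaks in a part of the day opposite to that of Nr1d1, Dbp and Per. In the intestine the loop takes timing cues from meals as well as from light, and a single hour of collection samples only 1 point of each gene's daily course.

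The promoters of 4 members are shown because they hold letters that match a clock motif, each of which also occurs in other promoters. They are RefSeq sequences of the GRCr8 build, from 250 bases before to 50 bases after the gene's start and written along the strand of the gene; capitals mark a motif on either strand. Of the 10 members, 9 matched a promoter by symbol, Arntl under Bmal1, and Cry1 is named only.
Arntl, chr1:176766078-176766377, ROR core in capitals: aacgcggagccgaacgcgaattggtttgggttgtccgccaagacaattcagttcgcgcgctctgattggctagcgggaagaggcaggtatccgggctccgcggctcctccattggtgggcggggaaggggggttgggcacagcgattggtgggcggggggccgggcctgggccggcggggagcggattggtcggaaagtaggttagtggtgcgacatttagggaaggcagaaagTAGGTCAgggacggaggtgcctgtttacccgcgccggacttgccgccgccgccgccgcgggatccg
Per2, chr9:99496944-99497243 (minus strand), D-box and then near E-box in capitals: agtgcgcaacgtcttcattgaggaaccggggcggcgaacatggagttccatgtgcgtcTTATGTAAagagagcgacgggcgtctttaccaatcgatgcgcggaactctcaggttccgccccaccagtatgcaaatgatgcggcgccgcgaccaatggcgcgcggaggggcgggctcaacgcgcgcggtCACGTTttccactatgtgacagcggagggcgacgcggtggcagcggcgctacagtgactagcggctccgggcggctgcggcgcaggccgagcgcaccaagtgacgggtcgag
Cry2, chr3:98860388-98860687 (minus strand), near E-box on the other strand in capitals: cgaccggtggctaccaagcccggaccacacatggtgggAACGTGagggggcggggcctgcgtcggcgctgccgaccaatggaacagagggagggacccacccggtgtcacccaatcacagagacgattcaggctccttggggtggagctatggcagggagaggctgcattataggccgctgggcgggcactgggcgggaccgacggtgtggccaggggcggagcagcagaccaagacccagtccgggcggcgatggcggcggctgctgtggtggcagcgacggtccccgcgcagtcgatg
Nr1d1, the more downstream of its starts, chr10:84229405-84229704 (minus strand), E-box in capitals: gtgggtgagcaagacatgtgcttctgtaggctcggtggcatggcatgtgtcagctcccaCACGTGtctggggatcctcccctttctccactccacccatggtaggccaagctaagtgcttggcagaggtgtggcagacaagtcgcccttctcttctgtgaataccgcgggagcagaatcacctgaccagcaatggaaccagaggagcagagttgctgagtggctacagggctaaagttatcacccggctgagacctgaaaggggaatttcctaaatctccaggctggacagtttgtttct

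Each motif was searched by its letters on both strands, and none of the matches printed overlaps another. The ROR core TAGGTCA began 16 bases before the start of Arntl, and 2.63% of all 33469 promoters of the same length held it. The E-box CACGTG was found in 1 member, Nr1d1, 191 bases before the start printed above, and in 6.42% of all promoters. The near E-box CACGTT was found in 3 members, 62 bases before Per2, 212 before Cry2 and 174 before the other start of Nr1d1, and in 4.83% of all promoters. The D-box TTATGTAA began 192 bases before the start of Per2, and 0.893% of all promoters held it. The cAMP element TGACGTCA was in no member's window and in 1.83% of all promoters. These matches describe letters in a short window and say nothing of binding in this tissue.

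Of the 3 probes of Per3, which encodes a PER protein, the 2 tested ones are shown because they share much of their sequence and yet were not interchangeable. Both are 60 bases long and lie on chromosome 5, minus strand, in the array's rn4 annotation, A_44_P196198 at chr5:168152851-168152910. The file gives a span of only 9 bases for A_43_P16143, from 168152693 to 168152701. Capitals mark the longest run they share, 22 bases.
A_44_P196198: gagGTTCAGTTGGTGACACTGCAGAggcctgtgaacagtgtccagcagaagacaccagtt
A_43_P16143: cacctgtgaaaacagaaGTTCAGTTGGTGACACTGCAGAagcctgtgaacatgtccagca
Aligned with free ends, they shared 44 of 47 columns, with 2 mismatches and 1 gap column, and the 2 probes were kept apart. The Per3 probe that was not tested, at chr5:168184060-168184119, was well above background on 2 of 15 arrays, and its values were not compared between groups.

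The arrays were of similar brightness apart from 2. The 75th percentile of the processed signal was 206.6 for Wistar replicate 3 and 208.4 for GK-Sham-PF replicate 5, against 301.9 to 357.2 for the others. The arrays sat on 4 slides. One held 4 Wistar rats, one held the remaining Wistar rat with 3 GK-Sham-PF rats, one held 2 GK-Sham-PF with 2 GK-S-30 rats and one held 3 GK-S-30 rats, so that Wistar and GK-S-30 shared no slide. Levels below are log2 processed signals after quantile normalization, given as mean ± SD with n = 5 for each group, and a difference is that of 2 group means with its SE. P-values are from limma over the 27893 tested probes, adjusted by Benjamini-Hochberg (BH), and a probe was called at an adjusted p under 0.05. A level cannot be compared between probes.

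The 2 cryptochrome genes, which encode the CRY repressors, were the only members called in any comparison, and both were lower in GK rats. Against Wistar, 1 of 11 member probes was called in GK-Sham-PF, where 7.83% of all tested probes were called, and 2 of 11 were called in GK-S-30, where 22.8% of all tested probes were called. Between the GK groups no member was called, where 6.7% of all tested probes were called. At an unadjusted p under 0.05, 4, 4 and 1 of the 11 member probes passed for GK-Sham-PF and GK-S-30 against Wistar and for the 2 GK groups, beside 18.9%, 34.8% and 20.6% of all tested probes. At an adjusted p under 0.05 the share of clock probes called was thus close to or below that of the array. At the unadjusted threshold their share was above that of the array in GK-Sham-PF against Wistar, and this excess was not tested. As this is whole tissue, fewer cells of a type and less RNA per cell cannot be told apart here.

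**Figure D1:**
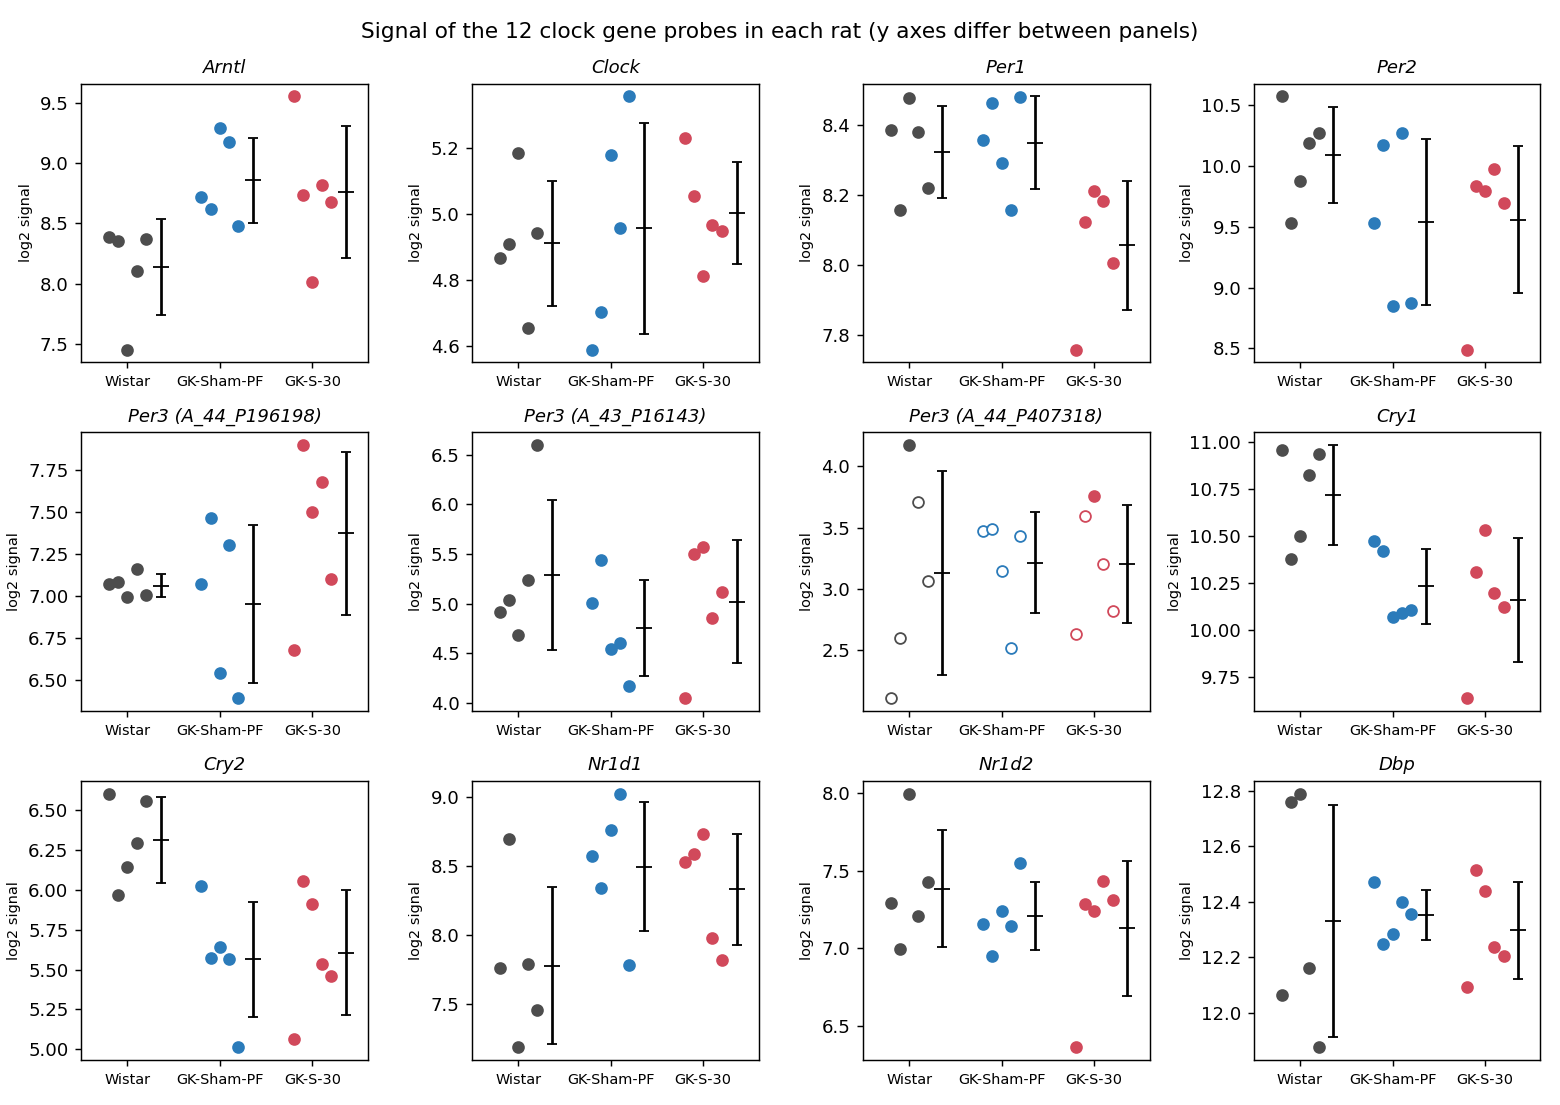
Log2 signal of each of the 12 clock gene probes (y axis, a separate scale in each panel) in the 5 rats of each group (x axis), with group mean and SD as black bars and open points for arrays where the probe was not well above background. Cry2 means were 6.31 for Wistar against 5.56 (GK-Sham-PF) and 5.61 (GK-S-30), and the open points show that the Per3 probe A_44_P407318 was near background.

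Cry2 (probe A_43_P13175, chr3:76802827-76802886 in rn4) read 6.60, 5.97, 6.14, 6.30 and 6.56 in the Wistar rats. It read 6.03, 5.57, 5.65, 5.56 and 5.01 in GK-Sham-PF and 5.07, 6.06, 5.91, 5.53 and 5.46 for GK-S-30. Only the lowest Wistar rat, at 5.97, lay within the range of either GK group, below the highest GK-Sham-PF rat and the highest GK-S-30 rat. The mean was 6.31 ± 0.27 in Wistar, against 5.56 ± 0.36 (GK-Sham-PF) and 5.61 ± 0.39 (GK-S-30). Cry2 fell by 0.75 on the log2 scale in GK-Sham-PF (SE 0.20, 95% confidence interval -1.19 to -0.31, limma adjusted p = 0.0339) and by 0.71 for GK-S-30 (SE 0.20, -1.14 to -0.27, limma adjusted p = 0.0213), both against Wistar. These are 1.68-fold and 1.63-fold lower signals. GK-S-30 and GK-Sham-PF differed by 0.04 (-0.39 to 0.48, limma adjusted p = 0.941).

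Cry1 (probe A_44_P374708, chr7:20708985-20709044 in rn4) read 10.96, 10.38, 10.50, 10.82 and 10.94 in Wistar. It read 10.47, 10.42, 10.07, 10.09 and 10.11 in GK-Sham-PF and 9.64, 10.31, 10.53, 10.20 and 10.12 for GK-S-30. The 3 highest Wistar rats lay above all 10 GK rats and the 2 lowest lay among them. Cry1 fell by 0.56 in GK-S-30 against Wistar (SE 0.16, -0.91 to -0.21, limma adjusted p = 0.0233), a 1.47-fold lower signal. In GK-Sham-PF against Wistar the difference was -0.49 (SE 0.16, -0.84 to -0.14, limma adjusted p = 0.095), which was not called but was at 0.0451 without GK-S-30 replicate 1, whose array enters the common spread, and GK-S-30 differed from GK-Sham-PF by -0.07 (-0.42 to 0.28, limma adjusted p = 0.863). An effect called in one GK group and not in the other does not show that the groups differ.

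These 3 calls lay close to the threshold. Leaving out 1 rat at a time ended the Cry2 call in GK-Sham-PF against Wistar for 7 of 15 rats (Wistar replicates 1, 4 and 5 and GK-Sham-PF replicates 2 to 5). In these 7 fits the difference ran from -0.77 to -0.61, with limma adjusted p up to 0.0896. Without the 2 dimmest arrays together it was -0.65, at a limma adjusted p of 0.0711. The Cry2 call in GK-S-30 against Wistar was lost without 3 rats (Wistar replicates 1 and 5 and GK-S-30 replicate 1), at differences from -0.65 to -0.57 and limma adjusted p up to 0.0556. The Cry1 call was lost without 4 (the same 3 and Wistar replicate 4), at differences from -0.53 to -0.43 and limma adjusted p up to 0.0609. With slide as a fixed block none of the 3 was called, at adjusted p of 0.5, 0.63 and 0.404 with limma for Cry2 in GK-Sham-PF, Cry2 in GK-S-30 and Cry1 in GK-S-30, and at differences of -0.85, -0.58 and -0.76. Within the slide that held both groups, the 3 GK-Sham-PF rats were lower than the Wistar rat by 0.85 for Cry2 and by 0.63 for Cry1, and with 1 Wistar rat this has no test. That rat, Wistar replicate 1, had the highest Wistar signal of both genes. The Cry2 difference of -0.85 with slide as a fixed block rests on the same rats and is not a second result.

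Arntl, the activator of the loop, had higher means in both GK groups but was not called. It read 8.39, 8.35, 7.45, 8.10 and 8.37 in Wistar, 8.71, 8.62, 9.29, 9.17 and 8.48 in GK-Sham-PF and 9.55, 8.73, 8.01, 8.82 and 8.68 for GK-S-30 (probe A_44_P214873, chr1:171161969-171162028 in rn4). Every GK-Sham-PF rat lay above every Wistar rat, and of the GK-S-30 rats all but 1 did. The mean was 8.14 ± 0.40 in Wistar, against 8.86 ± 0.35 (GK-Sham-PF) and 8.76 ± 0.55 (GK-S-30). The difference was 0.72 (SE 0.26, 0.18 to 1.26, limma adjusted p = 0.116) in GK-Sham-PF and 0.62 (SE 0.26, 0.08 to 1.17, limma adjusted p = 0.0941) for GK-S-30. Without GK-S-30 replicate 3, the lowest of its group, the latter was 0.81 and was called (limma adjusted p = 0.0285). Arntl was the only member whose rats did not overlap between GK-Sham-PF and Wistar, where 8.82% of all tested probes did not overlap. No member was without overlap for GK-S-30 against Wistar or for the 2 GK groups, beside 18% and 7.71% of all tested probes.

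Clock, the partner of Arntl, had nearly equal group means. Its probe ranged from 4.65 to 5.18 in Wistar, from 4.59 to 5.36 in GK-Sham-PF and from 4.81 to 5.23 for GK-S-30. The differences from Wistar were 0.05 (-0.27 to 0.36) in GK-Sham-PF and 0.09 (-0.22 to 0.40) for GK-S-30 and neither was called, at limma adjusted p of 0.926 and 0.702.

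**Figure D2:**
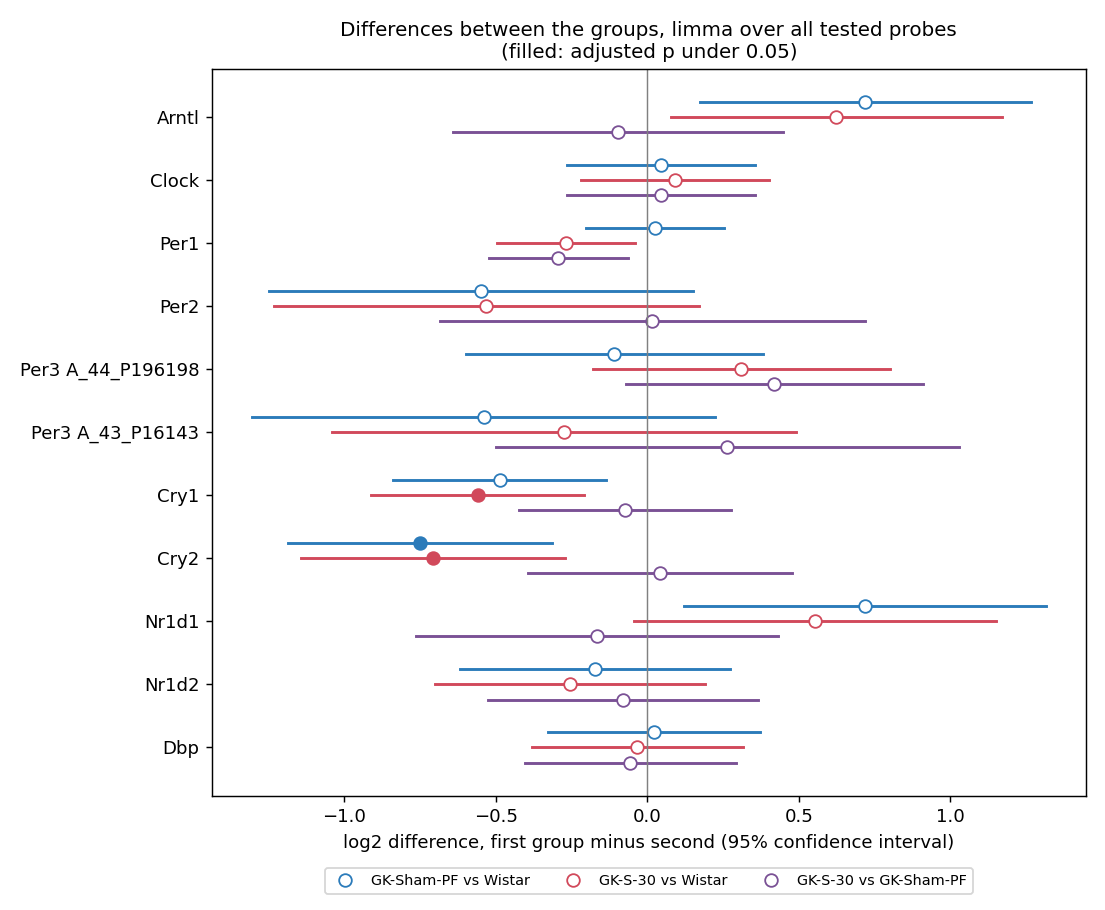
Difference between group means (x axis, log2 units, first group minus second) with its 95% confidence interval for each of the 11 tested probes (y axis) in the 3 comparisons, filled where limma's adjusted p was under 0.05. Cry2 is filled in both comparisons with Wistar, Cry1 in GK-S-30 against Wistar only, and no probe is filled between the GK groups.

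Among the Per genes, whose proteins join CRY in repression, none was called, and their probes did not go one way. Per1 read 8.39, 8.16, 8.48, 8.38 and 8.22 in Wistar, 8.36, 8.46, 8.29, 8.16 and 8.48 in GK-Sham-PF and 7.76, 8.12, 8.21, 8.18 and 8.01 for GK-S-30. The GK-S-30 rats were at the low end, with 3 of 5 below every rat of the other groups. GK-S-30 differed from GK-Sham-PF by -0.29 (SE 0.11, -0.52 to -0.06, unadjusted p = 0.0154 and adjusted p = 0.123 with limma) and from Wistar by -0.27 (SE 0.11, -0.50 to -0.04, limma adjusted p = 0.0874). It was the only member probe to pass at an unadjusted p of 0.05 between the GK groups, and its SD over rats was the smallest of all, at the 15.3th percentile of the tested probes.

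Per2 was among the most variable. It read 10.57, 9.53, 9.88, 10.19 and 10.27 in Wistar and 9.53, 10.18, 8.85, 10.28 and 8.87 in GK-Sham-PF. It read 8.49, 9.83, 9.80, 9.97 and 9.70 in GK-S-30, where replicate 1 stood far below the other 4. The GK-Sham-PF rats were spread from 8.85 to 10.28, with no label that separates high from low values. The spread over rats of all groups was at the 94.6th percentile of the tested probes. The differences from Wistar were -0.55 (-1.25 to 0.15, limma adjusted p = 0.416) in GK-Sham-PF and -0.53 (-1.23 to 0.17, limma adjusted p = 0.274) for GK-S-30, of similar size to those of Cry1 but with wider intervals.

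The tested Per3 probes differed in spread and, in GK-S-30 against Wistar, in the sign of the difference, and neither was called in any comparison. In Wistar, A_44_P196198 ranged only from 6.99 to 7.16 (SD 0.07), while A_43_P16143 ranged from 4.69 to 6.60 (SD 0.76), the highest rat being replicate 5. In GK-S-30 against Wistar they differed by 0.31 (-0.18 to 0.80) and -0.27 (-1.04 to 0.49), with limma adjusted p of 0.366 and 0.632. Between the GK groups both were positive (higher in GK-S-30), at 0.42 (-0.07 to 0.91, limma adjusted p = 0.329) for A_44_P196198 and 0.26 (-0.50 to 1.03, limma adjusted p = 0.753) for A_43_P16143. In GK-Sham-PF against Wistar both were negative, at -0.11 (-0.60 to 0.38, limma adjusted p = 0.877) and -0.54 (-1.30 to 0.23, limma adjusted p = 0.48).

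Nr1d1, the repressor of Arntl, read 7.76, 8.69, 7.19, 7.79 and 7.46 in Wistar, 8.57, 8.34, 8.76, 9.02 and 7.78 in GK-Sham-PF and 8.53, 8.59, 8.73, 7.98 and 7.82 for GK-S-30. The difference from Wistar was 0.72 (SE 0.28, 0.12 to 1.31, limma adjusted p = 0.16) in GK-Sham-PF and 0.55 (SE 0.28, -0.04 to 1.15, limma adjusted p = 0.176) for GK-S-30. Wistar replicate 2, at 8.69, was the highest Wistar rat and lay among the GK rats. Without it the differences were 0.95 and 0.78 and both were called, at limma adjusted p of 0.0337 and 0.0391. Neither was called in any other setting, including leaving out any other single rat. The means of Arntl and of its repressor were thus both higher in the GK groups. Nr1d2, the second REV-ERB gene, had a mean of 7.38 ± 0.37 in Wistar against 7.21 ± 0.22 (GK-Sham-PF) and 7.13 ± 0.43 (GK-S-30), with differences from Wistar of -0.17 (-0.62 to 0.27) and -0.25 (-0.70 to 0.19).

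Dbp, the D-box activator and a direct output of the loop, had nearly equal means, at 12.33 ± 0.42 for Wistar, 12.35 ± 0.09 for GK-Sham-PF and 12.30 ± 0.17 for GK-S-30. The intervals of its differences from Wistar ran from -0.33 to 0.37 and from -0.38 to 0.32. The Wistar rats were the most spread, from 11.88 to 12.79, and the GK-Sham-PF rats the least, from 12.25 to 12.47.

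Over the 11 probes, the median size of the difference was 0.49 for GK-Sham-PF against Wistar, 0.31 for GK-S-30 against Wistar and 0.08 between the GK groups, beside 0.16, 0.24 and 0.16 over all tested probes. The last comparison is that of the operation among GK rats, and it also sets an RL piece against an unrearranged piece and one feeding regime against another. Its intervals had half-widths from 0.23 for Per1 to 0.76 for the Per3 probe A_43_P16143, so that a missing call there does not show equal levels. Except for Per1 and Clock, the member probes also had an SD over rats above the median of all tested probes, 0.26. That SD reached the 96.3th percentile for the Per3 probe A_43_P16143. The part of this spread in the median sizes above was not tested.

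Rats of the same group also differed among themselves. GK-S-30 replicate 1 had the lowest value of its group in 8 of the 11 tested probes and the highest in 2, Arntl and Clock; Nr1d1 alone was at neither end. Its Per2 was 8.49 against 9.70 to 9.97 in the other GK-S-30 rats, and its Nr1d2 was 6.37 against 7.24 to 7.43. Its array was as bright as the rest, with a 75th percentile of 357.2. The hour at which this rat was killed is not given in the sources used here.

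**Figure D3:**
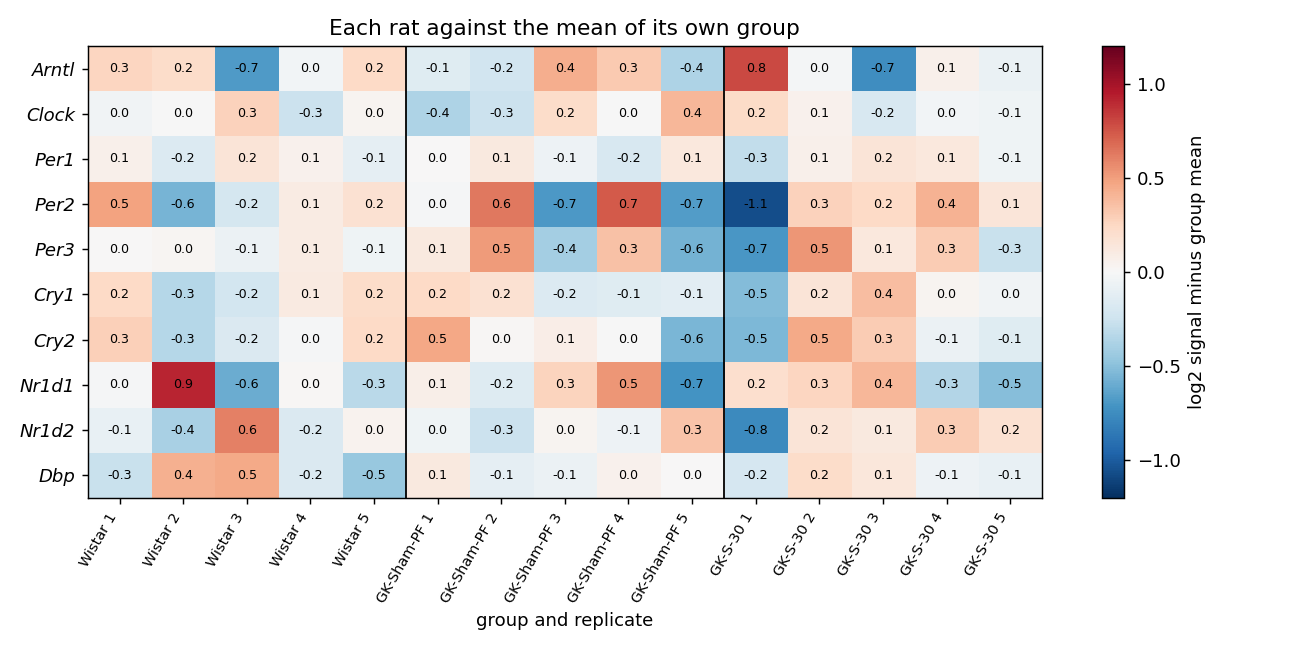
Log2 signal minus the mean of the rat's own group (colour and printed value) for 1 probe of each of the 10 genes (rows) in the 15 rats (columns, black lines between groups). In GK-S-30 replicate 1, Arntl stood at 0.8 and Per2 at -1.1; Wistar replicate 3, one of the dimmest arrays, stood at -0.7 for Arntl and 0.6 for Nr1d2.

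To ask whether the members moved together from rat to rat, each gene's values were centred on the group mean and Arntl was correlated with the 9 others over the 15 rats, with 100000 permutations of rats within groups. Of the 9 relations 2 were positive and 7 negative, and 1 passed after BH adjustment over the 9. Rats with a higher Arntl signal had a lower Per1 signal (r = -0.82, permutation p = 0.00095, adjusted p = 0.00855; Spearman rho = -0.81, permutation p = 0.00142, adjusted p = 0.0128). The relation was negative within each group, at r = -0.73 in Wistar, -0.86 in GK-Sham-PF and -0.85 for GK-S-30, and was -0.85 after centring on slide too. Without the 2 rats farthest from the median of Arntl, GK-S-30 replicates 1 and 3, r was -0.72 with a permutation p of 0.0187 (adjusted p = 0.168), and none of the 9 relations passed after adjustment. Without GK-S-30 replicate 1 alone r was -0.72 and the adjusted permutation p was 0.0863, so that the call was lost. No other rat was left out singly for the correlations, so whether the call depends on this rat more than on others was not tested.

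Nr1d2 gave r = -0.68 with Arntl (permutation p = 0.0276, adjusted p = 0.124; rho = -0.51, permutation p = 0.0644, adjusted p = 0.246), and Dbp r = -0.47 (permutation p = 0.0681, adjusted p = 0.204). The other relations had r between -0.46, for Cry1, and 0.38, for Nr1d1, with adjusted p from 0.326 upward by permutation. The 2 dimmest arrays mattered here. Without them, a choice made after seeing the data, Arntl and Clock varied together (r = 0.83, adjusted permutation p = 0.00693, against 0.16 over all rats), Cry1 ran opposite to Arntl (r = -0.80, adjusted permutation p = 0.0318, against -0.46), and Per1 still passed (r = -0.78, adjusted permutation p = 0.0318).

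**Figure D4:**
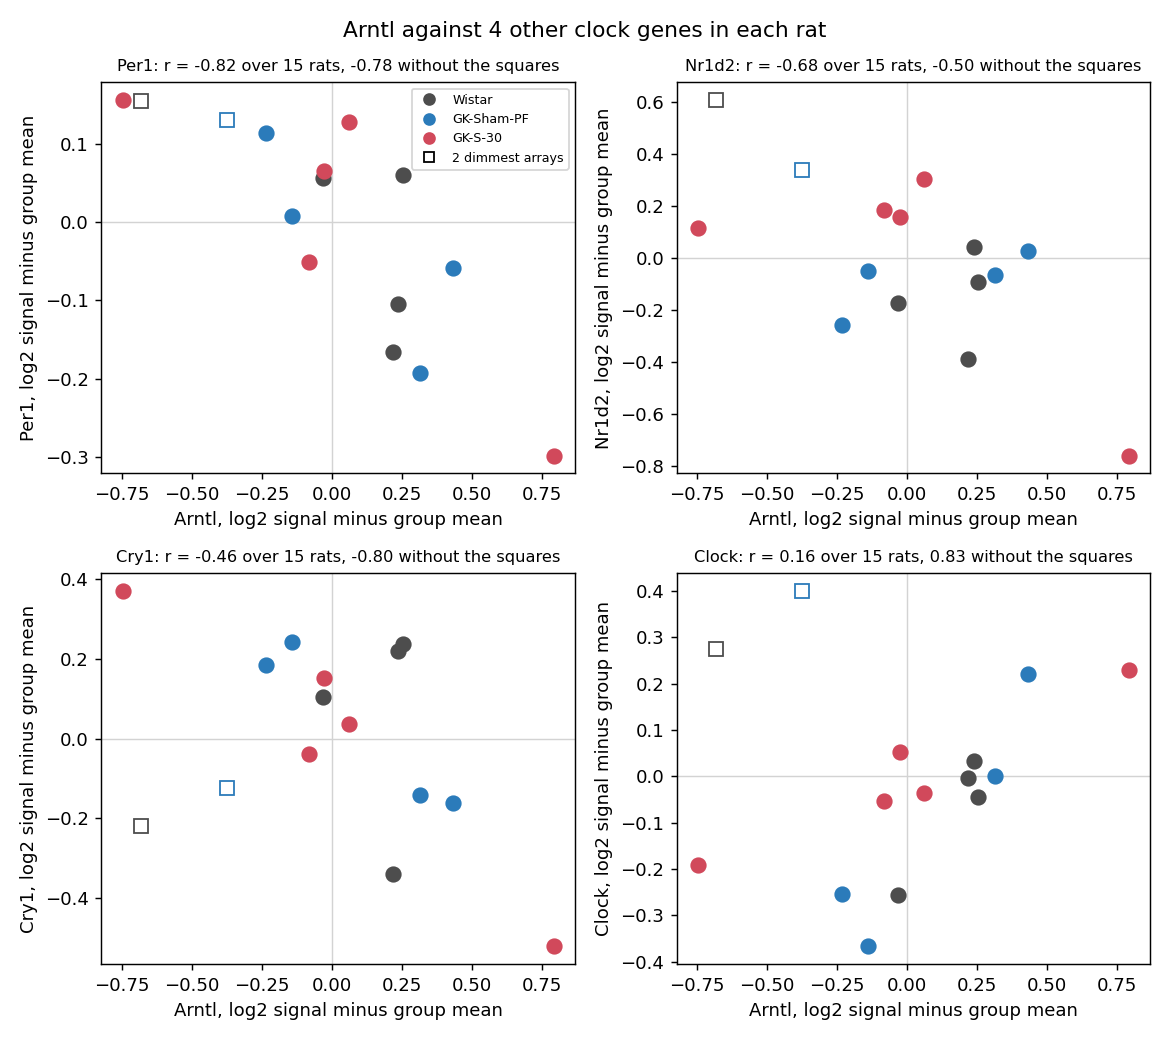
Log2 signal minus group mean of Per1, Nr1d2, Cry1 and Clock (y axes) against that of Arntl (x axes), 1 point for each of the 15 rats, coloured by group, with squares for the 2 dimmest arrays. Per1 was lower in rats with higher Arntl (r = -0.82), and for Clock the squares lie away from a rising line of the others (r = 0.16 with them and 0.83 without).

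Among the other members, as a description without a test over the same 15 rats, Per2 went with the Per3 probe A_44_P196198 (r = 0.83), Cry1 with Cry2 (r = 0.82) and Per2 with Cry1 (r = 0.70). The lowest values were those of Arntl with Per1 and Nr1d2 and of Clock with Cry1 (r = -0.66). The points of a pair share an array and its brightness, whose part in these values was not tested. The genes most like a member were found in the same way over 16991 named probes. For Arntl these were Coq7, Iqsec3, Zmym4, Adamtsl1 and Slc25a26, with r from 0.84 to 0.85, and the most opposite were Vdr, Tcta, Arl5b, Sesn3 and Slc9a3r1, with r from -0.90 to -0.83. For Nr1d1 they were Tonsl, Sh3bp2, Auh, Igbp1 and Dffb (0.88 to 0.92) and, opposite, Slc35a2, Tspan4, Usp24, Uba6 and Dgat2 (-0.92 to -0.89). For Dbp they were Akap7, Ptprj, Rhob, Bri3 and RGD1566265 (0.80 to 0.89) and, opposite, Ncapg, Rasl2-9, Mthfd1l, Klrd1 and Pde3a (-0.81 to -0.79).

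The rest of the clock machinery was taken as lists, with the brightest tested probe of each gene. Of 5 further activators and ROR receptors 3 were tested, of 3 further D-box factors 2, and of 12 further repressors and modifiers 9. None of these 14 was called for GK-Sham-PF against Wistar or between the GK groups. In GK-S-30 against Wistar 2 were called. Arntl2, the second gene of the Arntl kind, was higher, at 7.70 ± 0.22 against 6.73 ± 0.40 (difference 0.97, SE 0.18, limma adjusted p = 0.00142), and the GK-S-30 rats, from 7.38 to 7.98, lay above the Wistar rats, from 6.26 to 7.33. GK-Sham-PF was between them at 7.30 ± 0.27, 0.57 above Wistar with a limma adjusted p of 0.0766. Csnk1e, a kinase that marks PER proteins for breakdown, was lower, at 7.23 ± 0.24 against 7.72 ± 0.26 (-0.49, SE 0.14, limma adjusted p = 0.0234).

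Genes that the clock drives in many tissues were also listed. Of 10 such outputs, all tested, 2 were lower and none higher in GK-Sham-PF against Wistar, 2 higher and 1 lower in GK-S-30 against the pair-fed rats, and 1 higher and 4 lower in GK-S-30 against Wistar; the median differences were -0.24, -0.16 and -0.50, beside -0.0012, -0.03 and -0.03 over all tested probes. Id2, an inhibitor of helix-loop-helix factors, fell by 0.64 in GK-Sham-PF (SE 0.16, limma adjusted p = 0.0183) and by 0.90 for GK-S-30 (SE 0.16, limma adjusted p = 0.000733) against Wistar. Klf10, a zinc finger repressor, fell by 0.53 (SE 0.13, limma adjusted p = 0.021) and by 0.77 (SE 0.13, limma adjusted p = 0.00074). In both genes every GK-S-30 rat was below every Wistar rat, with ranges of 9.77 to 10.58 against 10.60 to 11.35 for Id2 and 11.22 to 11.60 against 12.12 to 12.31 for Klf10. Nampt, the rate-limiting enzyme of NAD salvage, was higher in GK-S-30 than in pair-fed GK rats (9.12 ± 0.13 against 8.28 ± 0.26; 0.84, SE 0.15, limma adjusted p = 0.00362) and than in Wistar (1.03, SE 0.15, limma adjusted p = 0.000149). Klf11 fell by 0.43 (SE 0.12, limma adjusted p = 0.0381) against GK-Sham-PF and by 0.53 (SE 0.12, limma adjusted p = 0.00439) against Wistar. Alas1, the first enzyme of heme synthesis, was higher in GK-S-30 than in pair-fed GK rats (0.65, SE 0.18, limma adjusted p = 0.0431).

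Of 8 intestinal transport genes with a daily rhythm, none was called in GK-Sham-PF against Wistar. Mttp, which loads lipid onto lipoproteins, fell in GK-S-30 by 0.34 against GK-Sham-PF (SE 0.10, limma adjusted p = 0.0454) and by 0.51 against Wistar (SE 0.10, limma adjusted p = 0.00151), and Slc15a1, the peptide transporter, was 0.51 higher than in Wistar (SE 0.16, limma adjusted p = 0.0281).

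Genes that answer to feeding and to glucocorticoids, both of which can set the intestinal clock, were read beside the members. Of 10 genes responsive to fasting and feeding, 2 were higher in GK-Sham-PF than in Wistar, Txnip by 0.65 and Irs2 by 0.69 (limma adjusted p = 0.0111 and 0.0267). In GK-S-30 2 were lower than in GK-Sham-PF, Angptl4 by 1.12 and Txnip by 0.62 (limma adjusted p = 0.0251 and 0.0204), and Angptl4, Fgf21 and Ppara were lower than in Wistar. The mean level of the 10 genes ran from 8.97 to 9.45 in Wistar, 9.003 to 9.59 in GK-Sham-PF and 8.36 to 8.89 for GK-S-30, whose rats lay below all others. Of 9 glucocorticoid responsive genes, none was called in GK-Sham-PF against Wistar, Cebpd in GK-S-30 was 0.88 lower than in GK-Sham-PF (limma adjusted p = 0.0454) and Tsc22d3 0.90 lower than in Wistar (limma adjusted p = 0.00807). The mean level of the 9 genes ran from 10.93 to 11.12 in Wistar, 10.77 to 11.29 in GK-Sham-PF and 10.43 to 10.86 for GK-S-30. The GK-S-30 rats thus lay below all Wistar rats but overlapped GK-Sham-PF. Of 7 tested immediate early genes, which respond quickly to stimuli, none was called in either comparison with GK-Sham-PF, and Jun was 0.56 lower in GK-S-30 than in Wistar (limma adjusted p = 0.0269). The part of feeding state and hormones in the Cry1 and Cry2 differences was not tested.

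Markers of the cell types the tissue could hold were read beside the members. The mean level of 9 tested enterocyte markers, all of them well above background in at least 1 group, ran from 14.29 to 14.96 in Wistar, 14.34 to 15.005 in GK-Sham-PF and 14.30 to 14.81 for GK-S-30, with 1 called higher and 1 called lower for GK-S-30 against Wistar and none in the other comparisons. The mean of 8 tested smooth muscle markers ran from 11.23 to 11.92, 10.96 to 12.14 and 12.61 to 12.96 in the same order, with 5 of 8 called higher in GK-S-30 against the pair-fed rats, 6 of 8 against Wistar and none in GK-Sham-PF against Wistar. Of 7 tested markers of enteric neurons and glia, only Vip, a neuropeptide, was called, higher than in Wistar both in GK-Sham-PF (by 0.71, limma adjusted p = 0.0268) and in GK-S-30 (by 0.83, limma adjusted p = 0.00445). Their mean ran from 7.29 to 7.46 in Wistar and from 7.51 to 7.93 in GK-Sham-PF, without overlap, and from 7.41 to 7.63 in GK-S-30. The mean of 7 tested goblet, Paneth and endocrine markers ran from 13.29 to 13.40 in Wistar and, again without overlap, from 13.10 to 13.24 in GK-Sham-PF, and from 13.24 to 13.45 in GK-S-30; none was called in either comparison with GK-Sham-PF, and against Wistar 1 rose and 1 fell in GK-S-30. Of 7 tested stroma and vessel markers 3 were higher in GK-S-30 in both comparisons. Of 6 tested immune markers 1 was higher and 1 lower in GK-Sham-PF against Wistar, 2 were lower in GK-S-30 against the pair-fed rats, and 1 was higher and 4 lower against Wistar. Both ileal markers, Slc10a2 and Fabp6, were higher in GK-S-30 than in either other group, and Slc10a2 was lower in GK-Sham-PF than in Wistar. Of 2 tested blood and 2 tested pancreatic acinar markers, 1 of each was higher in GK-S-30 than in Wistar, and no tested adipose or gastric marker was called. The mean of the 3 tested adipose markers differed widely between rats. It ran from 8.61 to 11.28 in Wistar, 8.86 to 11.29 in GK-Sham-PF and 9.08 to 10.48 in GK-S-30, so the missing call does not show equal levels. In Wistar the highest was replicate 1, at 11.28 against 8.61 to 9.31 in the others. The part of cell makeup in the Cry1 and Cry2 differences was not tested.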

How the data were processed

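Total RNA from each rat's intestinal piece was hybridised to a 1-colour (Cy3) Agilent whole rat genome array. The authors scanned and extracted the arrays with Feature Extraction 10.7 and deposited processed signal intensity for each spot, and separately deposited a table of log2 values which they had quantile-normalized in GeneSpring. Here the intensity was read from the 15 array files: control spots and outlier-flagged spots were left out, spots of a probe averaged, log2 taken and the arrays quantile-normalized. A probe was tested where at least 1 group had all of its arrays well above background for it (27893 of 41012 probes). All 3 groups were fitted together in limma 3.58.1 (R 4.3.3), each probe apart, with BH adjustment over all tested probes and 95% confidence intervals. The number of arrays limits the precision. Slide came from the file headers; slide and replicate number were not in the model. Correlations used 1 probe for each gene, the brightest tested one, and the permutation was two-sided, of rats within groups, with a fixed seed. Alternatives were 75th percentile scaling, normexp (offset 50), the deposited log2 table, the filter, 1 probe per name, slide, replicate number, the methods' test (a one-way model with Tukey's correction), 2 groups alone and leaving out arrays. All member probes are named; of each list, genes that passed were named, at most the 4 of largest change in a comparison, except that not every list result is reported here; the genes most like Arntl, Nr1d1 and Dbp were the 5 of highest and the 5 of lowest r. Symbols are those of the files or of RefSeq through the accession. The members and gene lists were chosen with earlier results of these data known.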

Additional observations from a re-analysis of the deposited data

Results flagged for a closer look

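In 36 sets of 5 values (12 member probes in 3 groups), 3 held a value whose gap to the nearest rat, divided by the range of the group, was above Dixon's critical value of 0.71; by chance about 1 set in 20 would. GK-S-30 replicate 1 stood apart in 2 of them, at 8.49 for Per2 (the other rats of its group at 9.70 to 9.97, ratio 0.82) and at 6.37 for Nr1d2 (others at 7.24 to 7.43, ratio 0.82). Wistar replicate 5 stood apart at 6.60 for the Per3 probe A_43_P16143 (others at 4.69 to 5.24), at the critical value. Probe A_44_P196198, which shares much but not all of its sequence, put the same rat at 7.01, within its group.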

How the results depend on the processing

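Of 11 member probes, 1 was called in GK-Sham-PF against Wistar, 0 between the GK groups and 2 in GK-S-30 against Wistar. These counts were the same with 75th percentile scaling, the deposited log2 table, a signal well above background on all 15 arrays, 1 probe per gene name, slide as a random block and the 2 groups fitted alone. In GK-Sham-PF against Wistar the count was 2 with normexp and with the methods' test unadjusted, and 0 without a filter, with slide as a fixed block, with the methods' test after BH adjustment and without the 2 dimmest arrays. In GK-S-30 against Wistar it was 0 with slide as a fixed block and with the methods' test after BH adjustment, and 3, with Per1 added, with that test unadjusted. Between the GK groups it was 1, Per1, with the methods' test unadjusted. Leaving out 1 rat gave counts from 0 to 2, of 0 each time, and from 0 to 3 in these 3 comparisons. No called difference changed sign. With slide as a fixed block, which sets Wistar against GK-S-30 only through GK-Sham-PF, the calls over all probes also dropped, from 2184, 1869 and 6352 to 414, 382 and 454; the cause of the other changes was not tested. They were 3775 and 3864 in the first 2 comparisons with the methods' test unadjusted, and 1384, 763 and 4168 after BH adjustment. With 1 probe per gene name 1155 were called in GK-Sham-PF and 3413 for GK-S-30 against Wistar; without GK-Sham-PF replicate 1 or 2, 1194 and 1238 were called between the GK groups.

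With the replicate block, the count of member probes called was 0 in GK-Sham-PF against Wistar and 0 in GK-S-30 against Wistar, and that over all probes between the GK groups 1211. Rats sharing a number did not deviate together (r from -0.28 to 0.19 over 15 pairs, 2 above 0.1; 1 of 15 arrays correlated best with its own number), so the numbers do not pair the rats. Of the correlations with Arntl, 1 passed, and 0 without the 2 rats farthest in Arntl, 0 without GK-S-30 replicate 1 and 3 without the 2 dimmest arrays, the last pair of settings chosen after seeing the data.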
